A study of Mus musculus with 9 samples.

Results

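The Myt1 family comprises 3 zinc finger genes, Myt1, Myt1l and St18. Their levels were read from the 112 exon array probe sets that the platform annotation gives to one of these genes alone, 49 for Myt1l, 31 for St18 and 32 for Myt1. The 3 genes stand among 16854 genes whose level could be tested. The family was chosen on the fall of Myt1l in Sfpq-/- cortex, so the values of all 3 genes in Sfpq-/- arrays are given below as a description, with no p-value and nothing read from calls, and only the comparison of Sfpq+/- with control was tested for them.

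Cerebral cortices of E13.5 mouse embryos gave the total RNA, which was hybridised to Affymetrix Mouse Exon 1.0 ST arrays, which carry several probe sets along each gene. There were 3 control arrays, 3 arrays of Sfpq+/- embryos (1 disrupted copy of Sfpq) and 3 arrays of Sfpq-/- embryos (both copies disrupted). Sfpq encodes a nuclear RNA-binding protein that takes part in transcription and splicing. The labels give no strain, promoter or Cre driver, deleted exon or litter, and the extraction notes list Sfpq+/- where Sfpq-/- would stand, so groups were taken from the genotype field. Whether the embryos of a group are from different litters is not stated, and each p-value therefore measures only how these samples spread. Each sample was bulk tissue, in which fewer cells of a type and less RNA per cell cannot be told apart.

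Myt1 family proteins bind DNA through clusters of a CCHHC type of zinc finger and recognise a short core motif, AAGTTT. Myt1l is made in neurons soon after they leave the cell cycle, where it represses genes of other cell fates, and it is used with Pou3f2 in turning fibroblasts into neurons. Myt1 acts in neural progenitors and in the oligodendrocyte lineage and has been described to oppose Notch signalling, in part by repressing Hes1. St18, also named Myt3 or Nzf3, is made in the developing nervous system, including neurons born in the medial ganglionic eminence, and in pancreatic islets.

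Because the family reads AAGTTT, the promoters of its own members were searched for these letters. RefSeq promoter windows, from 250 bases before to 50 bases after each listed start in GRCm38.p6, were matched for 2 of the 3 genes, 3 windows for Myt1 and 5 for Myt1l. St18 was not matched. The motif was found in 2 of the 3 Myt1 windows, once in each and on the strand of the gene, and in 0 of the 5 Myt1l windows. AAGTTT, read on both strands (AAACTT on the other), was present in 4721 of all 32851 windows of 300 bases, or 14.4%. The windows of Myt1 that hold it and the first window of Myt1l are shown 5′ to 3′, with AAGTTT in capitals.
Myt1, first window, chr2:181763082-181763381, + strand: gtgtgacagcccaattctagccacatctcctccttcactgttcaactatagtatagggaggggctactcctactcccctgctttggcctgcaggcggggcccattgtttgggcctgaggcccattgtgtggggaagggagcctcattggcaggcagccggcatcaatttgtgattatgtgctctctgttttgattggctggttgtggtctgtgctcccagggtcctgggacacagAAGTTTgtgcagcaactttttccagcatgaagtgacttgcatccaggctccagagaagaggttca
Myt1, last window, chr2:181796057-181796356, + strand: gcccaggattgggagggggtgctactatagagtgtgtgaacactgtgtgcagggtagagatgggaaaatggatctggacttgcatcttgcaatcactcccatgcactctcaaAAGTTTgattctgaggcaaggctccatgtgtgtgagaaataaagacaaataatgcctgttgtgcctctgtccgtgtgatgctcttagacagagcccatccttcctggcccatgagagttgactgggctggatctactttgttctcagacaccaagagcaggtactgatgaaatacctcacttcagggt
Myt1l, first window, chr12:29528134-29528433, + strand: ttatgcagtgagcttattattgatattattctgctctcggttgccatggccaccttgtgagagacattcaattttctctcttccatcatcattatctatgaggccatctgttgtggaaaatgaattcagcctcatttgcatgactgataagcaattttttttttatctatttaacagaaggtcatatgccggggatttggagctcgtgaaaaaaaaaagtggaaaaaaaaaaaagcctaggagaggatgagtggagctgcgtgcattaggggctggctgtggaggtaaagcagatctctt
A match describes the letters in a window only. Binding was not measured.

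The arrays were first checked against their labels. The 12 bright Sfpq probe sets of 23 (control mean above 10) averaged 12.09 ± 0.02 on the log2 scale in control (SD, n = 3), 11.96 ± 0.11 in Sfpq+/- and 10.13 ± 0.17 in Sfpq-/-. Every Sfpq-/- array, at 9.99 to 10.31, lay below every other array, while control (12.07 to 12.12) and Sfpq+/- (11.87 to 12.08) overlapped. Cortical markers were present on all 9 arrays, with Emx2 at 10.12 to 10.49, Pax6 at 8.89 to 9.29, Lhx2 at 11.55 to 11.97 and Tbr1 at 9.82 to 10.20. Nkx2-1, a factor of the medial ganglionic eminence that cortical progenitors lack, ranged from 5.87 to 8.50 and was highest in control 1. Xist, the RNA of the inactive X chromosome, read 11.18 in control 1, 11.02 in control 2 and 10.80 in Sfpq-/- 1. The other 6 arrays, all 3 of Sfpq+/- included, read 4.62 to 5.40.

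Gene levels are means over the probe sets whose signal, averaged over the 9 arrays, exceeded 5.64, the median of all probe sets on the array. This kept 43 of 49 Myt1l, 27 of 31 St18 and 30 of 32 Myt1 probe sets. All levels and differences below are on the log2 scale.

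The members took 3 courses across the genotypes. In Sfpq-/- cortex Myt1l was about 2-fold below control, St18 was about 2-fold above it, and Myt1 differed little. In Sfpq+/- cortex the means of all 3 genes lay slightly above control, and none passed the test.

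Myt1l, the neuronal repressor of other cell fates, stood at 8.54, 8.41 and 8.50 in the control arrays, at 9.0, 8.66 and 8.64 in Sfpq+/- and at 7.43, 7.52 and 7.46 in Sfpq-/-. The Sfpq-/- arrays were the lowest and lay close together, and no groups overlapped. The group means were 8.48 ± 0.07, 8.77 ± 0.20 and 7.47 ± 0.05 (SD, n = 3 each). Sfpq-/- minus control came to -1.01 (SE 0.10, 95% interval -1.23 to -0.80), 2.02-fold lower. The 1 Sfpq-/- array that was high in Xist read 7.43, and the 2 that were low in it read 7.52 and 7.46. The part of Xist level in the difference was not tested.

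St18 stood at 9.09, 8.92 and 8.90 in control, at 9.16, 9.21 and 9.15 in Sfpq+/- and at 10.25, 10.19 and 9.97 in Sfpq-/-. Each Sfpq-/- array exceeded all 6 others, and each Sfpq+/- array exceeded each control array, though by little. The means were 8.97 ± 0.10, 9.17 ± 0.03 and 10.14 ± 0.15. Sfpq-/- minus control came to 1.17 (SE 0.09, 95% interval 0.97 to 1.36), 2.24-fold higher. St18 thus moved in the opposite direction to Myt1l on the same arrays.

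Myt1, the member of progenitors and oligodendrocyte precursors, stood at 9.29, 9.19 and 9.19 in control, at 9.44, 9.31 and 9.29 in Sfpq+/- and at 9.37, 9.49 and 9.29 in Sfpq-/-. Its Sfpq-/- arrays overlapped with both other groups. The means were 9.23 ± 0.06, 9.35 ± 0.08 and 9.38 ± 0.10, and Sfpq-/- minus control came to 0.16 (SE 0.08, 95% interval -0.02 to 0.33). That interval leaves room for a rise of at most 0.33.

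**Figure D1:**
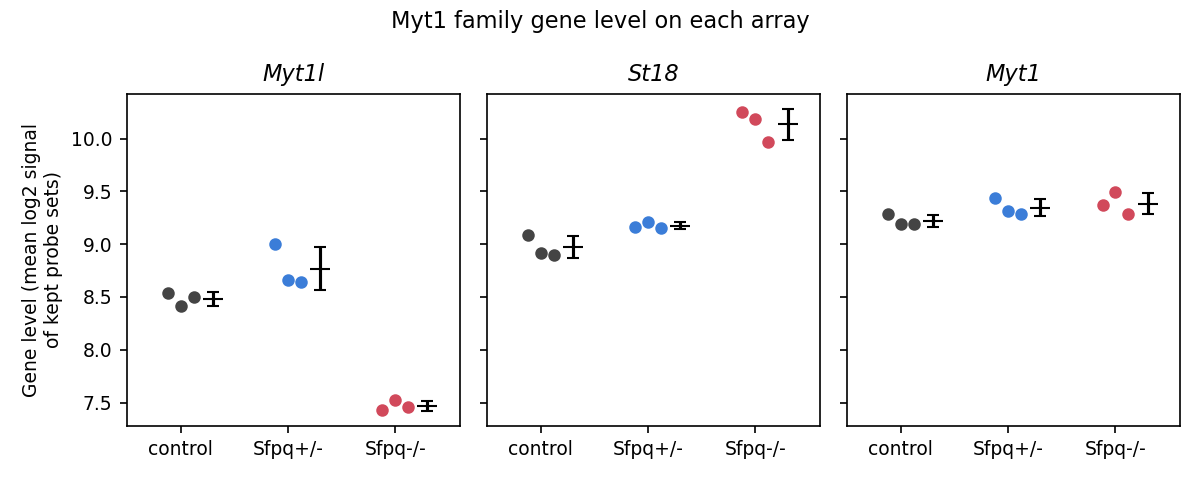
Gene level (log2 signal, mean of kept probe sets) of Myt1l, St18 and Myt1 on each of the 9 arrays by genotype. Coloured points are arrays, and the black bars give each group's mean and SD (n = 3). The 3 Sfpq-/- arrays lie lowest for Myt1l (7.43 to 7.52) and highest for St18 (9.97 to 10.25), and overlap the other groups for Myt1.

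Across all genes, 5.98% were called higher and 6.12% lower in Sfpq-/- than in control (1008 and 1032 of 16854, limma, adjusted p under 0.05), with a median difference of 0.03. Without control 2 the calls in both directions numbered 1343 and without Sfpq-/- 1 they numbered 1311. St18 was among the genes called higher and Myt1l among those called lower, and since Myt1l's fall chose the family nothing is read from these calls. Set against Sfpq+/- instead, Sfpq-/- differed by -1.30 for Myt1l (95% interval -1.52 to -1.08, 2.46-fold lower), by 0.97 for St18 (0.77 to 1.16, 1.95-fold higher) and by 0.04 for Myt1 (-0.14 to 0.21). In that comparison 4.58% of all genes were called higher and 7.25% lower. It shares the Sfpq-/- arrays with the one that chose the family, so these values are also a description.

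Sfpq+/- against control was the comparison that could be tested, although it shares the control arrays with the choice of the family. The bright Sfpq probe sets averaged 11.96 in Sfpq+/- and 12.09 in control, with overlapping arrays. The genotype of the Sfpq+/- arrays therefore rests on the labels. All 3 Sfpq+/- arrays were low in Xist, while control 1 and control 2 were high. Genotype and Xist level therefore cannot be fully told apart in this comparison. Sfpq+/- minus control was 0.28 for Myt1l (SE 0.10, 95% interval 0.07 to 0.50), higher in 3 of 3 Sfpq+/- arrays than in any control array. By limma its unadjusted p was 0.0154 and its adjusted p over all genes 0.886. Sfpq+/- 1 was the highest array, and without it the difference was 0.17. For St18 the difference was 0.20 (SE 0.09, 0.00 to 0.40), also with no overlap, with an unadjusted p of 0.048 and an adjusted p of 0.886 (limma). Myt1 differed by 0.12 (SE 0.08, -0.06 to 0.30), with an unadjusted p of 0.163 and an adjusted p of 0.886 (limma). No gene of the 16854 passed, so the background is 0%, while 715 genes had an unadjusted p under 0.05. The largest rise the intervals allow is 0.50 for Myt1l and 0.40 for St18.

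In order of level, Myt1l was lowest in Sfpq-/-, then control, then Sfpq+/-, and St18 was lowest in control, then Sfpq+/-, then Sfpq-/-. For both genes the control and Sfpq+/- neighbours did not differ past the threshold. For Myt1 no neighbouring groups in the order control, Sfpq+/-, Sfpq-/- were separated.

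The probe sets of a gene read different stretches of its transcripts and share the same RNA, so they are not replicates. The kept probe sets of Myt1l did not all move alike. Of 43, 30 were lower in Sfpq-/- than in control by 1 or more, 2 by between 0.5 and 1, and 11 lay within 0.5 of control. Their differences had a median of -1.32 and ran from -2.05 to 0.24. The 32 that fell by at least 0.5 had a median difference of -1.37, and the 11 others of 0.00. These medians differ by the choice of the limit, and values lay close on both sides of it (-0.53 in 4588218, -0.46 in 4957072).

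Probe set 5277321 had the largest drop, with 8.26, 8.02 and 8.19 in control, 8.82, 8.43 and 8.16 in Sfpq+/- and 6.17, 6.08 and 6.08 in Sfpq-/-, a difference of -2.05. Bright probe sets fell too. Probe set 4917314 read 10.90, 10.86 and 11.15 in control and 9.21, 9.23 and 9.85 in Sfpq-/-, and 5286779 read 10.40, 10.16 and 10.46 against 8.46, 8.61 and 8.61. Other bright probe sets of the same gene did not fall. Probe set 4623216 read 10.36, 10.15 and 10.37 in control and 10.27, 10.53 and 10.44 in Sfpq-/-, and 4430100 read 10.12, 10.15 and 9.96 against 9.79, 10.13 and 10.30. In both, the control and Sfpq-/- arrays overlapped, so signal from some stretches of Myt1l was at the control level while most of the gene read lower.

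Probe sets that fell and those that stayed near control overlapped in control signal, and the part of signal strength was not tested. The 32 probe sets that fell had control means of 6.33 to 10.97 (median 8.70), with 20 above 8, and the 11 that did not had 6.36 to 10.29 (median 8.40), with 6 above 8. In Sfpq+/- the differences from control had medians of 0.31 (-0.04 to 0.87) in the 32 and 0.29 (-0.31 to 0.55) in the 11, and no test compared the classes. The classes were drawn on the Sfpq-/- values, and where the probe sets lie along the gene was not used here.

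**Figure D2:**
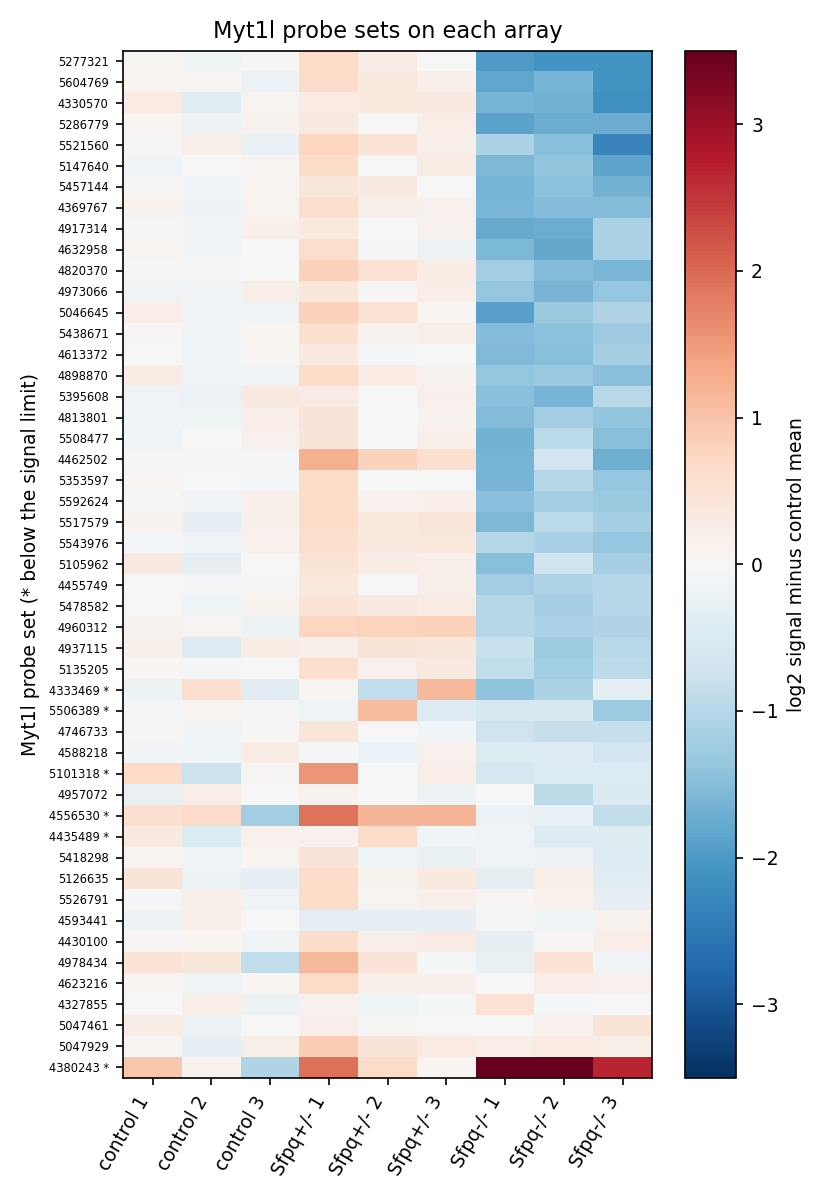
The 49 Myt1l probe sets (rows, ordered by their difference in Sfpq-/-) on the 9 arrays (columns), coloured by log2 signal minus that probe set's control mean, with the scale limited at ±3.5. Starred rows were not kept. The upper rows are blue on all 3 Sfpq-/- arrays, the lower ones are near white, and the bottom row, 4380243, is red.

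A Myt1l probe set that was not kept went the other way. Probe set 4380243 read 5.02, 4.22 and 3.03 in control, 6.02, 4.72 and 4.16 in Sfpq+/- and 7.66, 7.81 and 6.75 in Sfpq-/-, a difference of 3.32 with no overlap between control and Sfpq-/-. Its mean over the 9 arrays was below 5.64, so it entered no gene level. It was picked out after its values were seen, and its control level was faint.

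In St18 all 27 kept probe sets were higher in Sfpq-/- than in control, with a median of 1.01 and a range of 0.76 to 2.73, and 16 of them by at least 1. The bright probe set 4956954 read 11.70, 11.66 and 11.66 in control, 11.70, 11.73 and 11.66 in Sfpq+/- and 12.55, 12.55 and 12.47 in Sfpq-/-, a difference of 0.85. The largest rise, 2.73, was in a faint one, 4926061, which read 5.93, 5.11 and 5.96 in control, 6.67, 6.36 and 6.26 in Sfpq+/- and 8.63, 8.46 and 8.09 in Sfpq-/-. Of all 31 probe sets only 5591410, which was not kept, lay below control, by -0.44 with overlapping arrays.

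In Myt1 the differences were near 0. Of its 30 kept probe sets, 29 lay within 0.5 of control in Sfpq-/-, with a median of 0.15 and a range of -0.14 to 0.67.

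**Figure D3:**
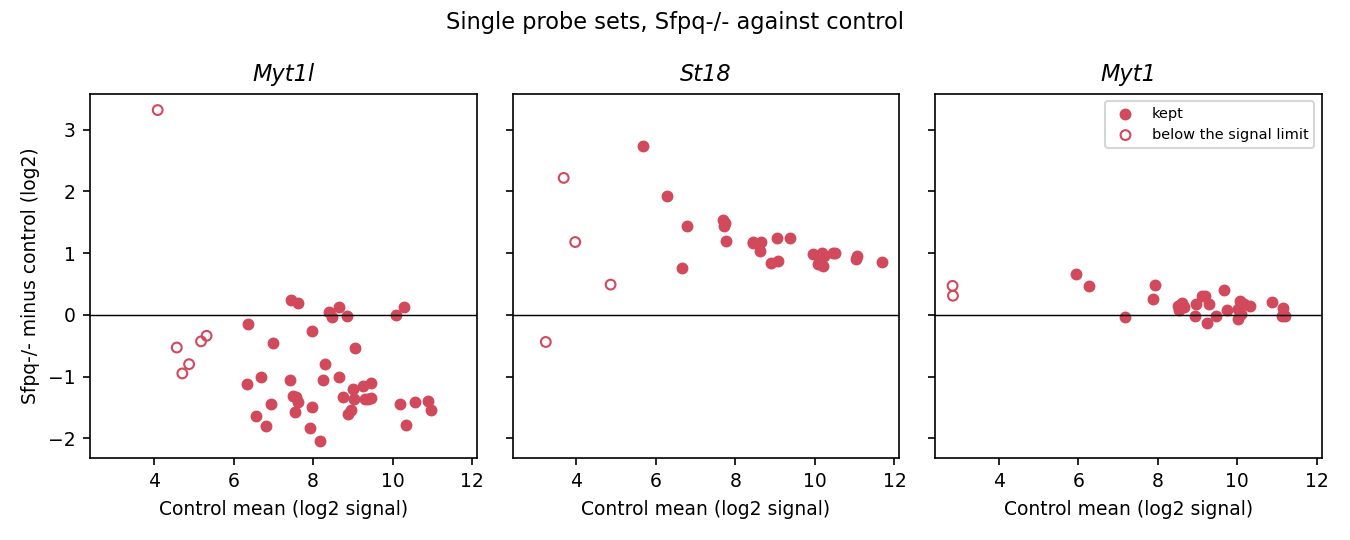
Difference between Sfpq-/- and control (vertical axis, log2) of every probe set of the 3 genes against its control mean (horizontal axis, log2 signal). Filled points were kept and open ones lay below the signal limit. Kept Myt1l points lie between -2.05 and 0.24 and kept St18 points between 0.76 and 2.73. All but 1 of the kept Myt1 points lie within 0.5 of 0.

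Single probe sets were also set against the whole array, as a description since the contrast chose the family. In Sfpq-/- against control, 30 Myt1l probe sets were called lower and 25 St18 probe sets higher (limma, adjusted p under 0.05), and no Myt1 probe set was called. Over all 628415 kept probe sets 0.561% were called higher and 1.19% lower. Since this contrast chose the family, nothing is read from these counts. Arrays did not overlap for 32 Myt1l probe sets that were lower and 1 that was higher, for 26 St18 probe sets that were higher, and for 5 higher and 1 lower of Myt1. Over all kept probe sets these shares were 7.65% higher and 7.4% lower. The count of Myt1l probe sets called lower fell to between 20 and 27 with any 1 control or Sfpq-/- array left out. The count of St18 probe sets called higher fell to 15 without control 2 and to 14 without Sfpq-/- 1.

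In Sfpq+/- against control, 39 of 43 kept Myt1l probe sets lay above control (median 0.31, range -0.31 to 0.87). So did 25 of 27 of St18 (median 0.17) and 22 of 30 of Myt1 (median 0.10). How many of all kept probe sets lay above control was not counted, and probe sets of a gene share the same RNA. These counts are therefore not taken as support for the gene level differences. The arrays did not overlap for 13 higher and 1 lower Myt1l probe sets, for 5 higher of St18 and for 6 higher of Myt1, where 5.27% (higher) and 5.3% (lower) of all kept probe sets did so. By limma 0 member probe sets passed the adjusted threshold, and 7 of Myt1l, 2 of St18 and 0 of Myt1 had an unadjusted p under 0.05. The background was 0% as well, with 28244 kept probe sets under that unadjusted p. The smallest p of a member belonged to Myt1l probe set 4960312, at 7.54, 7.52 and 7.24 in control and 8.18, 8.22 and 8.23 in Sfpq+/-, a difference of 0.78 (limma, unadjusted p 0.000212, adjusted p 0.983).

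Whether any stretch of a member departed from the rest of its gene in Sfpq+/- was tested on probe sets from which the mean of their gene on the same array had been subtracted. By limma 0 members passed, against 0% of 248590 deviations overall. At an unadjusted p under 0.05 there were 3 for Myt1l, 1 for St18 and 0 for Myt1, and 9560 overall. The Myt1l deviations ran from -0.60 to 0.59.

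The members were also compared with each other and with all other genes over the 9 arrays, as a description. Groups that differ in mean raise or lower such a correlation for any pair of genes that both moved, so a correlation of deviations from group means is given as well. Myt1l and St18 had r = -0.90 over the 9 arrays and 0.09 within groups. Myt1l and Myt1 had r = -0.26 and 0.73 within groups, and St18 and Myt1 had 0.62 and 0.60.

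The 5 genes most like Myt1l by Pearson's r over 9 arrays were Nav1 (r = 0.997), Gnao1 (0.995), Ptpro (0.994), Aff3 (0.994) and Stk32b (0.993). Within groups r was 0.84 to 0.93, and their Sfpq-/- minus control differences were -0.78, -0.81, -1.46, -0.93 and -0.59. These genes were picked by r over the same 9 arrays, Sfpq-/- included, so the r within groups is not free of that choice. Gnao1 encodes the Go alpha subunit of neuronal G proteins, and Nav1 a protein of growing axons. For St18 they were Ranbp9 (0.995), Arvcf (0.994), Sall2 (0.993), Necab2 (0.993) and Jag1 (0.990), with differences of 0.26, 0.35, 1.06, 1.08 and 0.91. Jag1 is a Notch ligand and Sall2 a zinc finger factor. For Myt1 they were Kif1b (0.983), Firre (0.975), Thoc5 (0.975), Kdm5b (0.968) and Atg2b (0.963), whose differences were 0.16 to 0.23.

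**Figure D4:**
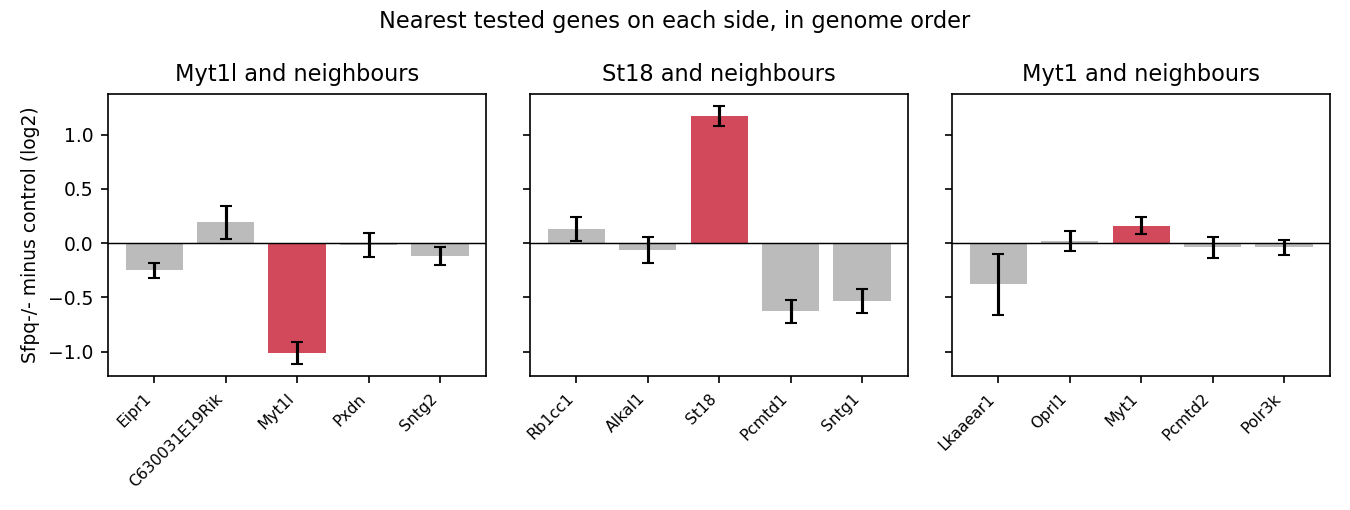
Sfpq-/- minus control (log2) of each member (red bars) and of the 2 nearest tested genes on each side of it in the RefSeq gene table (grey bars), in genome order, with error bars of 1 SE. Among the neighbours, Pcmtd1 and Sntg1 beside St18 are lower in Sfpq-/- (-0.63 and -0.53) where St18 is higher (1.17).

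The genes next to Myt1l and St18 on the chromosome differed by less than those members, or in the other direction. Beside St18, Pcmtd1 fell by 0.63 (limma, adjusted p 0.0033) and Sntg1 by 0.53 (adjusted p 0.00989), opposite to St18, while Rb1cc1 (0.13) and Alkal1 (-0.06) did not pass. The call of Sntg1 ended under a stricter filter on signal, at -0.19 (limma, adjusted p 0.466), and with medians of probe sets, at -0.49 (adjusted p 0.0575). Beside Myt1l, Eipr1 was at -0.25 (limma, adjusted p 0.0482), a call lost in 5 of 6 fits with 1 control or Sfpq-/- array removed, while C630031E19Rik (0.19), Pxdn (-0.02) and Sntg2 (-0.12) did not pass. By limma none of the 4 neighbours of Myt1 passed, with 0 at an unadjusted p under 0.05. In Sfpq+/- none of the 12 neighbours passed (limma adjusted p 0.886 or above), with 0 at an unadjusted p under 0.05.

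Gene length was set beside these differences. In RefSeq (GRCm38.p6), Myt1l spans 395.6 kb of chromosome 12, St18 373.7 kb of chromosome 1 and Myt1 64.4 kb of chromosome 2. Among the 713 tested genes of 200 to 500 kb, 272 were called lower and 32 higher in Sfpq-/-, with a median difference of -0.18. Myt1l was the 58th from the lowest of these and St18 the highest. Among 2271 genes of 50 to 100 kb, 128 were lower and 145 higher, with a median of 0.03, and Myt1 was 559th from the highest. Myt1l and St18 are of nearly equal span and moved in opposite directions. The part of gene length in these differences was not tested.

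Genes that work with the family were read from lists of its known pathway, partners and relatives. Notch signalling, which Myt1 is described to oppose, had 24 measured genes, of which 3 were called higher and 2 lower in Sfpq-/- against 5.98% and 6.12% of all genes, with a median of 0.02 against 0.03. Maml2 (-1.29, limma adjusted p 4.86e-06) and Maml3 (-0.42, adjusted p 0.00352), coactivators of the Notch transcription complex, fell. With medians of probe sets Maml3 was at -0.10 (limma, adjusted p 0.683) and its call ended. The ligands Jag1 (0.91, adjusted p 7.42e-05) and Dll3 (0.70, adjusted p 0.002) rose, as did Numbl (0.31, adjusted p 0.0109), a Notch pathway antagonist whose call ended with no filter on signal and with medians of probe sets. Without Sfpq-/- 2 the list had 5 genes called lower. Hes1, the repressed target named above, was at -0.08 and did not pass.

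Corepressor partners, the Sin3, histone deacetylase and REST complexes through which zinc finger repressors act, showed 0 calls among 21 measured genes (limma), with 1 at an unadjusted p under 0.05 and a median of 0.07. Without Sfpq-/- 3 there were 2 calls, both higher. The smallest p was that of Ing2 (0.27, adjusted p 0.0701), followed by Arid4a (0.23, adjusted p 0.241). Sin3a (0.14) and Sin3b (0.12), the scaffolds of the Sin3 complex, did not pass.

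Proneural and reprogramming partners had more calls. Of 24 measured genes, 7 were higher and 8 lower, with a median of -0.02. Without Sfpq-/- 1 only 3 were higher and 6 lower, and with medians of probe sets 4 and 4. Pou3f2, a partner of Myt1l in making neurons from fibroblasts, fell by 0.51 (limma, adjusted p 0.00413). The proneural factors Neurod4 (-1.11, adjusted p 7.32e-05) and Neurog2 (-0.92, adjusted p 0.00152) fell, and Ebf2, a factor of young neurons, rose by 0.73 (adjusted p 0.00139). Other zinc finger factors of the developing brain numbered 34, of which 4 were higher and 10 lower, with a median of -0.01. With medians of probe sets 2 were higher and 7 lower. Insm1, which was lower, is counted both here and among the proneural partners. Prdm16 (-1.67, adjusted p 1.42e-06), Gli2 (-1.24, adjusted p 5.99e-06) and Zfp804a (-1.12, adjusted p 8.3e-06) fell and Sall2 (1.06, adjusted p 1.07e-05) rose. These lists stand beside the members as context, and nothing is drawn from them about the family's action. In Sfpq+/- no gene of the 4 lists passed by limma, with 7 entries at an unadjusted p under 0.05.

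Markers of the cell types that make the members were read on the same arrays. Of all genes, 5.98% were called higher and 6.12% lower in Sfpq-/- than in control. For Myt1l, 22 neuron markers were measured, of which Ina rose and Syt1 and Elavl2 fell, with a median of 0.05. Syt1, a synaptic vesicle protein, fell by 0.77 (limma, adjusted p 0.00018). The call of Ina (0.42, adjusted p 0.0116) was lost in 1 of 6 fits with 1 array removed and that of Elavl2 (-0.32, adjusted p 0.0261) in 4. Summed on the linear scale, the neuron markers came to 29392 to 31912 in control, 31711 to 35591 in Sfpq+/- and 30923 to 33286 in Sfpq-/-. Without Ina they were 24904 to 27054 in control, 26726 to 30065 in Sfpq+/- and 24901 to 26586 in Sfpq-/-. The median difference of the neuron markers in Sfpq+/- was 0.15, where that of all genes was 0.03, and 0 were called. Of 13 markers of intermediate progenitors, 2 were higher and 5 lower (1 to 2 and 3 to 4 with 1 array removed). All of these called genes are also counted in other lists. Neurog2, Neurod4, Neurod1, Eomes and Insm1 are among the proneural partners, Dll3 in the Notch list and Elavl2 among the neuron markers. The counts of these lists are therefore not independent. The sums of the 13 markers were 16121 to 16387 in control and 13908 to 15061 in Sfpq-/-, without overlap. Neurog2, the brightest of them in control, went from a mean of 11.27 to 10.35 in Sfpq-/-, and sums without it were not made. Of 18 radial glia markers 3 were lower, Ddah1 by 1.37 (limma, adjusted p 1.86e-06) the most.

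For St18, 20 markers of the ganglionic eminences and interneurons were measured. In Sfpq-/- 2 were higher and 1 lower, where 5.98% and 6.12% of all genes were, with a median of 0.06. Gad1, which makes GABA, rose by 0.98 (limma, adjusted p 0.0102) and Zfp503, a striatal factor, by 0.53 (adjusted p 0.00147). Sst, a peptide of interneurons, was at -0.69 (adjusted p 0.0288), a call that ended in 4 of 6 fits without 1 array. Their sums were 7029 to 11528 in control, 7764 to 9199 in Sfpq+/- and 8266 to 9199 in Sfpq-/-. The upper end in control was control 1, and without it the control sums were 7029 to 8386. Nkx2-1 read 8.50, 7.38 and 6.84 in control and 7.29, 6.51 and 6.74 in Sfpq-/-, and Lhx6, which it activates, 9.14, 8.26 and 8.49 against 8.30, 8.03 and 8.22. Control 1 was the highest array in both and also the highest control array in St18 (9.09). The part of these markers in the St18 difference was not tested.

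For Myt1, 13 markers of the oligodendrocyte lineage were measured and 1, Bcas1, was higher (0.27, limma adjusted p 0.0253), in a call that ended in 4 of 6 fits without 1 array. That count is near the share of all genes called higher, 5.98%. Olig2, the lineage factor of oligodendrocyte precursors, was at -0.18 and did not pass. The sums were 2578 to 2594 in control, 2359 to 2611 in Sfpq+/- and 2703 to 2741 in Sfpq-/-.

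Lists of other cell types were read beside the same shares of all genes (5.98% higher, 6.12% lower). The endothelial and meningeal lists, with 1 gene of 14 each, were near the share called higher. Of 10 Cajal-Retzius markers 6 were higher, led by Lhx5 (1.02, limma adjusted p 0.000251) and Calb2 (0.69, adjusted p 0.00179), with sums of 4435 to 4960 in control and 5527 to 5912 in Sfpq-/-. Of these 6, Ebf2, Ebf3 and Nhlh2 were also counted among the proneural partners. Of 15 microglia and macrophage markers 7 were higher, led by Cd68 (0.51, limma adjusted p 0.00492), a count that fell to between 1 and 5 with any 1 control or Sfpq-/- array removed, with sums of 3279 to 3300 and 3884 to 3998. Of 14 meningeal markers only Crabp2 was higher (1.78, limma adjusted p 7.7e-05), with sums of 7683 to 9234 and 10664 to 11140. Crabp2 itself went from a mean of 9.4 in control to 11.18 in Sfpq-/-, and sums without it were not made. The midline and choroid plexus list had 2 of 15 higher, led by Foxj1 (0.55, limma adjusted p 0.000593), the endothelial list 1 of 14 (Rgs5, 0.30, limma adjusted p 0.028), and the erythroid list 0 of 8 by limma (3 at an unadjusted p under 0.05). Rgs5 and Rspo3 (0.32, limma adjusted p 0.0307), the other midline gene, each lost their call in 5 of 6 fits with 1 array removed. The Cajal-Retzius count was 4 without Sfpq-/- 1. No marker of any list was at 0. The part of these cell types in the differences of Myt1l and St18 was not tested.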

How the data were processed

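Total RNA from 9 cortices was measured on exon arrays, 1 array each. The deposited values are log2 signals per probe set, which the submitters' processing notes say the authors made in Affymetrix Expression Console (1.2.0.20). The design text in the labels also names the Exon Array Computational Tool. For background correction and normalization the method is not given in the sources used. The log2 unit was taken from the values. The number of arrays limits the precision.

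Of 1256831 probe sets, 318760 had 1 symbol in the platform annotation, 6684 several and 931387 none, and 3993 symbols were updated through RefSeq. Probe sets with a mean over 9 arrays above 5.64 were kept (628415), and genes with at least 3 of them were averaged. Genes, probe sets and deviations were fitted with limma 3.58.1 in R 4.3.3 on 3 group means (lmFit, eBayes), adjusted by Benjamini-Hochberg (threshold 0.05). The fit was tested on simulated data.

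The members and lists were chosen with earlier results of these data known. Named genes were the 3 members, up to 4 genes of each list with the smallest adjusted p in Sfpq-/- minus control, the 5 most correlated genes and the 2 nearest tested genes on each side of each member. Numbl, Hes1, Sin3b, Olig2, Nkx2-1, Lhx6 and the cortical markers were named beside that rule after their values were seen, as were the single probe sets. Alternatives were other filters, medians of probe sets, quantile normalization and fits on only the arrays of the 2 groups compared. Others were array weights, a replicate block and each array left out.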

Additional observations from a re-analysis of the deposited data

How the results depend on the processing

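No member changed direction in Sfpq-/- or Sfpq+/- against control under any alternative. Sfpq-/- minus control for Myt1l was -0.88 with no filter and -0.92 with medians of probe sets (-1.05 to -0.98 with each array left out), and for St18 0.93 with medians and 1.32 with array weights (1.11 to 1.25). Against Sfpq+/-, medians gave -1.02 for Myt1l and 0.79 for St18. Array weights, whose fit did not converge, called 11465 genes (Sfpq-/- minus control), 868 (Sfpq+/- minus control) and 7198 (Sfpq-/- minus Sfpq+/-), and 179 list genes. With them Sfpq+/- minus control was 0.33 for Myt1l (limma adjusted p 0.0371) and 0.25 for St18 (0.0406). Weights estimated gene by gene, chosen after seeing the data, called 4609, 0 and 3635 genes and 99 list genes, with adjusted p of 0.197 and 0.21. The adjusted p of Myt1l ranged from 0.0371 to 1.0. Leaving out 1 array called 1311 to 2453 genes (1343 without control replicate 2, 1311 without Sfpq-/- replicate 1), 0 to 1 and 1397 to 2267. A stricter filter called 1 gene in Sfpq+/-, as did leaving out Sfpq+/- replicate 2. Myt1l probe sets called lower numbered 20 to 27 with 1 array left out. St18 probe sets called higher numbered 14 to 24 with 1 array left out (15 without control replicate 2, 14 without Sfpq-/- replicate 1), and list genes called 38 to 57. Same-numbered samples correlated at -0.055 to 0.574 in their deviations, and 5 of the 9 pairs exceeded 0.1, so the rule that every pair exceed it was not met and the numbers were not taken to pair the samples. The replicate block called 2469, 0 and 2367 genes, and gave Myt1l in Sfpq+/- an adjusted p of 0.673. Named list genes and neighbours stayed on the same side of the threshold in 810 alternatives, lost a call in 70, gained one in 64 and changed sign in 13. The sign changes were in neighbours that had not passed: Pxdn (-0.15 to 0.07 with 1 array left out), Sntg2 (0.18, stricter filter), Alkal1 (0.00 with no filter, 0.02 with medians, -0.21 to 0.04 with 1 array left out), Oprl1 (-0.04 to 0.11), Lkaaear1 (-0.65 to 0.02) and Pcmtd2 (0.03 with no filter, -0.14 to 0.05). The cause of these shifts was not tested.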
